A study of Mus musculus with 16 samples.

Results

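The transcripts described here are those of nonmuscle myosin II and of the tropomyosins: Myh9 and Myh10 (heavy chains), Myl6 (essential light chain), Myl9, Myl12a and Myl12b (regulatory light chains) and Tpm1, Tpm2, Tpm3 and Tpm4 (tropomyosins). They were chosen by name, and all 10 were listed among the 13015 genes of the deposited expression table. RNA was sequenced from NIH/3T3 cells, an established line of mouse fibroblasts, that had received either control siRNAs (siControl) or siRNAs against Apc (siAPC). After serum starvation, the cells spent 2 h on membranes with pores of 3.0 µm, extended protrusions through them for 1 h towards lysophosphatidic acid (LPA) and were fixed for 10 min in 0.3% paraformaldehyde. What had passed the pores was collected as protrusions (Ps) and what remained above as cell bodies (CB), so that 4 groups (siControl_CB, siControl_Ps, siAPC_CB and siAPC_Ps) were measured in 4 replicates each. All groups shared the cell line, the pore size, the LPA and the fixation. The siAPC cells kept part of their Apc RNA, and the fractions came from separate filters, more of them for Ps than for CB, so that each held RNA of many cells and not of single protrusions.

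Nonmuscle myosin II is the motor that pulls on actin filaments in stress fibres and at the cell cortex, and each motor carries heavy chains, essential light chains and regulatory light chains. Phosphorylation of the regulatory light chain by myosin light chain kinase and other kinases switches the motor on, and this route sets the contractility of fibroblasts. Tropomyosins are coiled-coil proteins that lie along actin filaments and decide which motors and binding proteins can act there. Fibroblasts make many isoforms from their 4 genes.

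Of the regulatory light chains, Myl12a and Myl12b are near-identical copies, which bears on how their reads can be told apart, while Myl9 is more distant. Their coding sequences were all 519 bases long in the principal transcripts of the GENCODE M21 annotation (GRCm38). Myl12a and Myl12b were identical at 96.5% of positions, Myl9 and Myl12a at 85.5%, and Myl9 and Myl12b at 86.3%. The first 120 coding bases are shown, 5′ to 3′, with capitals at the 18 positions where the 3 genes do not all carry the same base.
Myl9: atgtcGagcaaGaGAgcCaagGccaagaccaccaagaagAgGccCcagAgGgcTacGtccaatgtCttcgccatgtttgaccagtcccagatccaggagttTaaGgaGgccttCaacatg
Myl12a: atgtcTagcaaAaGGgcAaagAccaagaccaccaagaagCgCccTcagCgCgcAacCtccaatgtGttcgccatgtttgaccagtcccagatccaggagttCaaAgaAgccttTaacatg
Myl12b: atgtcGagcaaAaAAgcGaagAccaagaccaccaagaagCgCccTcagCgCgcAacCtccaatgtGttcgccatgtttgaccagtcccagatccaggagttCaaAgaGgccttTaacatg

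Over whole transcripts, the share of a gene's 50-base words that also occurred in another listed gene was 16.2% for Myl12a, 7.07% for Myl12b, 23.2% for Tpm3, 11.7% for Tpm4 and 8.35% for Myl6. It was 0.581% for Myh9, 0.689% for Myh10 and 0 for Myl9, Tpm1 and Tpm2. Tpm3 shared its words with the retrocopy Tpm3-rs7, Tpm4 with Gm7809, and Myl6 with Gm5526, Gm10080 and Gm8894. These copies held few reads, at most 98 in any library for Gm5526 and 26 for Tpm3-rs7, beside a library maximum of 20461 for Myl6 and 3906 for Tpm3. The methods of the study do not say how reads that match more than 1 gene were counted. These counts therefore do not show how many reads the genes lost to their copies. Myl12a also overlapped a second gene model that carries the Myl12b name, on the same strand over 13.75% of its exon bases, and the opposite-strand gene Myom1 over 6.16%, where at most 26 reads were listed in a library. The same second model overlapped Myl12b over 26.68% of its exon bases on the same strand, and with it counted as another gene 25.4% of the words of Myl12b were shared. Values of Myl12a and Myl12b are therefore uncertain to the extent that reads were split between them.

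The promoter of Myl9 is shown because this gene differed most between siAPC and siControl. The 206 bases upstream of the annotated gene on the plus strand, chr2:156775214-156775419 (RefSeq promoter table, GRCm38.p6), held a CArG box, the site of serum response factor, which lies 161 to 152 bases before the RefSeq start and is given in capitals.
Myl9: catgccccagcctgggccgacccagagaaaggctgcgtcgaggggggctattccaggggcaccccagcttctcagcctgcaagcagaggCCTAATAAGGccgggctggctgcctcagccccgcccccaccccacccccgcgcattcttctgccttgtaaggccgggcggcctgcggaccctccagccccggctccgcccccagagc

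All 10 genes were found in the promoter table, with 12 promoters. The CArG box, searched over the 250 bases before each start, occurred in 1.47% of all 32851 promoters and in 1.201% of the 11737 promoters of listed genes. Among the myosin and tropomyosin genes it was found in Myl9 and in the second promoter of Myl6, 50 to 41 bases before the start (CCTTATATGG). The letters CTTTGA, the core bound by TCF/LEF factors, were searched on both strands and found in Tpm3 alone, against 13.8% of all promoters, and the letters GGAATG, the core bound by TEAD factors, in Myh10 and Tpm1, against 12.6%. No match overlapped another motif, and a match is a description of letters, not of binding.

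Libraries held between 13466225 and 20296087 reads in listed genes. The 10 genes took 0.335% to 0.416% of them, and no single value rested on fewer than 287 reads. Apc, the target of the siRNA, stood at 2.61 ± 0.65 log2 CPM (reads scaled to the size of the library, on a log2 scale; SD, n = 4) in siControl_CB and 3.53 ± 0.18 in siControl_Ps, and at 0.93 ± 0.38 in siAPC_CB and 1.68 ± 0.26 in siAPC_Ps. Its difference between siRNAs was -1.67 in CB and -1.84 in Ps (limma adjusted p = 0.000142 and 3.11e-05). The fibroblast markers fixed for the cell line were all listed (10 of 10), with a summed level of 40230 to 43830 CPM in siControl_CB, 23680 to 26270 in siControl_Ps, 50840 to 56150 in siAPC_CB and 28870 to 31600 in siAPC_Ps. Of the striated muscle markers 4 of 7 were listed, at 12.5 to 15.7 CPM in siControl_CB, 18.4 to 23.3 in siControl_Ps, 23.3 to 25.7 in siAPC_CB and 31.1 to 36.6 in siAPC_Ps, and of the smooth muscle markers 2 of 5, at 139.3 to 149.2, 78.6 to 112.7, 139.1 to 153.5 and 76.0 to 95.9 CPM in the same order. The median log2 difference of these 2 smooth muscle markers between siAPC and siControl was 0.48 in CB, with none called, and 0.72 in Ps, with 1 called higher. Myog, Ckm and Myh3 of skeletal muscle and Myh11, Cnn1 and Lmod1 of smooth muscle were not listed, and the part of the other muscle markers in the results was not tested. The nuclear RNAs Malat1 and Neat1 summed to 422 to 892 CPM in CB and to 105 to 308 CPM in Ps, and mitochondrial transcripts took 1.37% to 1.95% of reads in CB and 2.18% to 4.16% in Ps. In 4 libraries, siControl_CB replicate 3 and replicate 2 of the other 3 groups, values fell with the GC content of a gene. Spearman values across 10235 genes were -0.538 to -0.658 there, against -0.039 to 0.542 in the other 12, given as a description. These 4 are called the GC-trend libraries, although values of some others rose with GC content. Results that change without these 4 are named below.

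Levels per kilobase of principal transcript (CPM per kb) placed Myl6 first in every group, at 1179 ± 53.6 in siControl_CB, followed by Myl12a at 268 ± 19.7 (SD, n = 4). Myh9, the heavy chain of myosin IIA, stood at 177 ± 5.40 in siControl_CB and Myh10, the heavy chain of myosin IIB, at 4.65 ± 0.46, the lowest of the 10 in every group. Tpm1 led the tropomyosins at 132 ± 11.1, before Tpm4 at 83.8 ± 2.83, Tpm3 at 73.5 ± 3.60 and Tpm2 at 45.8 ± 1.74. No neighbours in this order overlapped in siControl_CB. In siControl_Ps the libraries of Tpm1 and Myh9 overlapped, as did those of Myl12b and Myl9. In siAPC_CB those of Myh9 and Tpm1, and of Tpm4 and Tpm3, overlapped. In siAPC_Ps those of Myh9 and Tpm4, and of Tpm3 and Tpm2, overlapped. Myl9 stood below Myl12b in siControl_CB (14.8 ± 1.42 against 18.02 ± 1.02 CPM per kb) and above it in siAPC_CB (38.4 ± 2.53 against 18.2 ± 0.37) and in siAPC_Ps (56.9 ± 2.11 against 28.0 ± 3.51). With lengths of all exons joined, Myl6 and Myl12a stayed the first and second, Myh10 stayed the last, but Tpm4 stood above Tpm1, Tpm2 above Tpm3 and Myl9 above Myl12b in every group, so the order of the tropomyosins within these pairs, and that of Myl9 and Myl12b in siControl, rests on the length used.

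**Figure D1:**
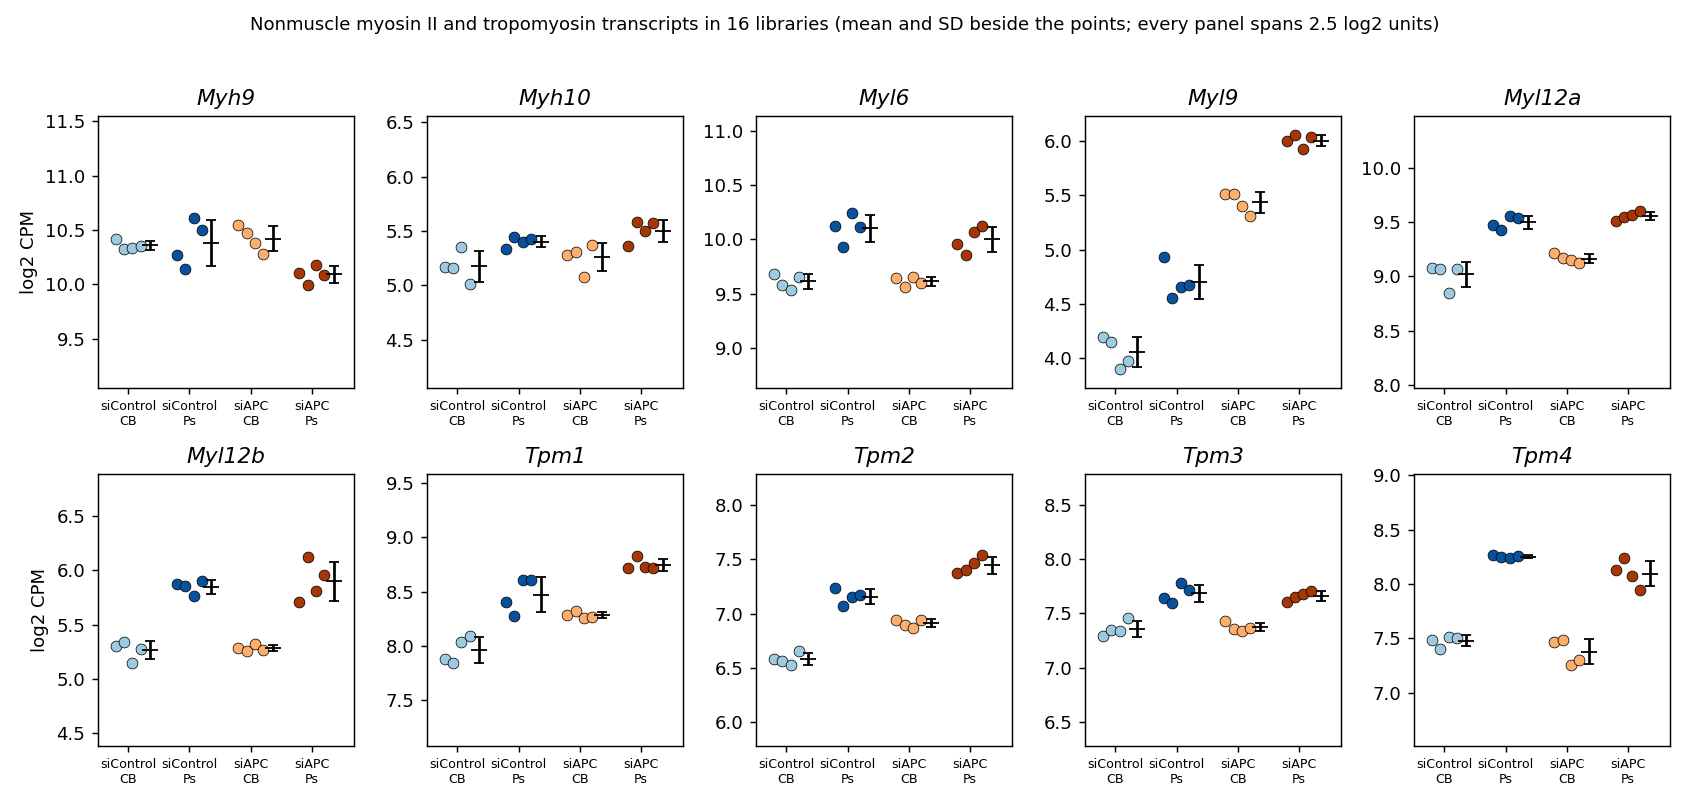
Log2 CPM of each gene in the 16 libraries, with the mean and SD of each group beside its 4 points and every panel spanning 2.5 log2 units. Myl9 separates all 4 groups, from 3.90 to 4.19 in siControl_CB up to 5.93 to 6.05 in siAPC_Ps, while Myh9 has its lowest mean in siAPC_Ps.

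To determine which of these RNAs were enriched in protrusions, Ps and CB fractions were compared within each siRNA. In siControl cells, 9 of the 10 genes were higher in Ps than in CB and none was lower (limma, adjusted p below 0.05), where 60.3% of all listed genes were called in either direction, 29.1% higher and 31.2% lower. The median log2 difference of the 10 genes was 0.50, beside -0.0009 over all genes. None differed by more than 2-fold at an unadjusted p below 0.05, a cutoff met by 7.19% of genes in favour of Ps and by 6.82% in favour of CB. In siAPC cells, 9 of the 10 were higher and 1, Myh9, was lower, where 60.7% of all genes were called, 29.8% higher and 30.9% lower. The median was 0.43, beside 0.015 over all genes. None met the cutoff of 2-fold, which 7.67% of genes met in favour of Ps and 5.05% in favour of CB. The 4 Ps and 4 CB libraries did not overlap for 8 of the 10 genes in siControl and for 9 of 10 in siAPC, which held for 50.5% and 58.6% of all genes. In bulk fractions, fewer cells of a kind and less RNA of a gene per cell cannot be told apart.

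**Figure D2:**
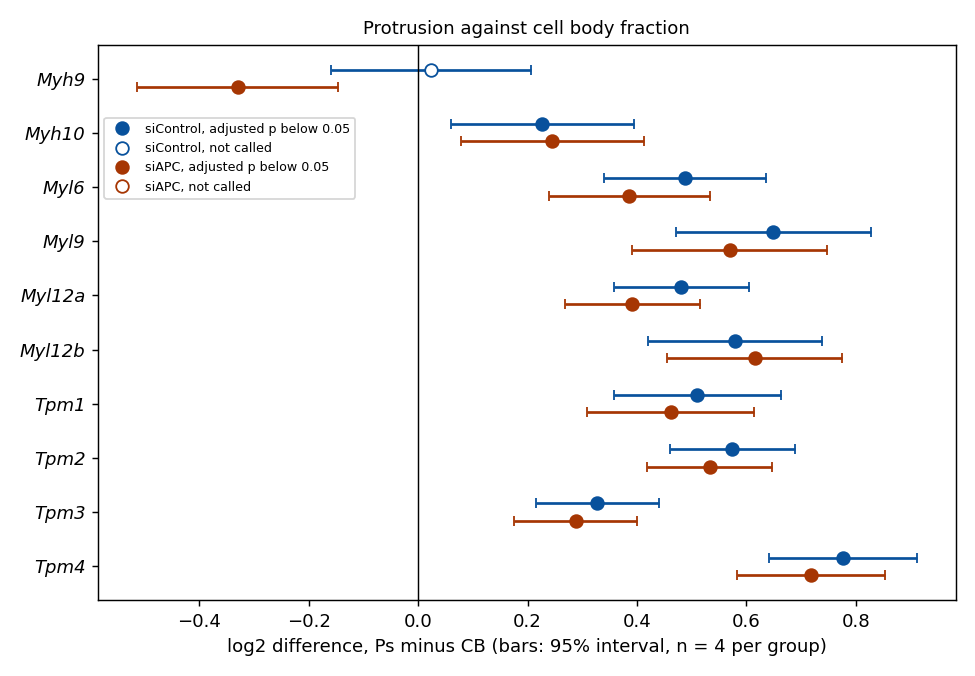
Log2 difference between Ps and CB for each gene in siControl and siAPC cells, with 95% intervals from limma (n = 4 libraries per group); filled points passed an adjusted p of 0.05. Tpm4 has the highest value in both, at 0.78 and 0.72, and Myh9 alone lies at 0.023 and -0.33.

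Of the heavy chains as deposited, Myh10 was called higher in Ps in both siRNAs, and Myh9 was called lower in siAPC alone. Neither passed the interaction test given below. Myh9 (chr15:77760587-77842175, minus strand) stood at 10.42, 10.33, 10.33 and 10.36 log2 CPM in replicates 1 to 4 of siControl_CB and at 10.27, 10.14, 10.61 and 10.50 in siControl_Ps. Its Ps libraries lay on both sides of the CB libraries, and the difference was 0.023 ± 0.088 (SE; limma adjusted p = 0.834). In siAPC cells it stood at 10.55, 10.48, 10.38 and 10.28 in CB and at 10.11, 9.99, 10.18 and 10.09 in Ps. Every siAPC_Ps library lay below every siAPC_CB library, a difference of -0.33 ± 0.088 (1.26-fold lower; limma adjusted p = 0.00313). In siControl, Myh9 was called lower after scaling to total reads (-0.274, limma adjusted p = 0.0123) and quantile normalization (-0.594, limma adjusted p = 2.6e-06). After a loess for GC content and length, Myh9 was called higher in siControl (0.583, limma adjusted p = 5.325e-08) and siAPC (0.263, limma adjusted p = 0.00059). Myh10 (chr11:68691559-68816632, plus strand) stood at 5.17, 5.16, 5.36 and 5.01 in siControl_CB and at 5.33, 5.44, 5.40 and 5.43 in siControl_Ps. The highest CB library overlapped the Ps libraries, and the difference was 0.23 ± 0.080 (limma adjusted p = 0.0196). In siAPC it was 0.25 ± 0.080 (limma adjusted p = 0.0123), with libraries from 5.08 to 5.37 in CB and from 5.36 to 5.58 in Ps. These Myh10 calls were lost without siControl_CB replicate 4 (0.17, adjusted p = 0.0833) and without siAPC_CB replicate 3 (0.185, adjusted p = 0.0596). Scaling to total reads ended both, at -0.071 in siControl (adjusted p = 0.557) and 0.09 in siAPC (adjusted p = 0.45), whereas the loess for GC content and length raised them to 0.61 and 0.638 (adjusted p = 2.32e-06 and 1.8e-06).

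The essential light chain Myl6 (chr10:128490860-128494145, minus strand) stood at 9.68, 9.58, 9.54 and 9.65 log2 CPM in siControl_CB and at 10.12, 9.93, 10.24 and 10.11 in siControl_Ps. All Ps libraries lay above all CB libraries, by 0.49 ± 0.0705 (1.40-fold; limma adjusted p = 7.66e-06). In siAPC cells Myl6 was 0.39 ± 0.0705 higher in Ps (1.31-fold; limma adjusted p = 0.000112). That call was lost after quantile normalization (0.092, adjusted p = 0.106). In siControl, Myl6 fell to 0.148 after quantile normalization and 0.19 after scaling to total reads, still called (limma adjusted p = 0.013 and 0.01275). After the loess for GC content and length, Myl6 was called lower in Ps in both siRNAs (-0.226 and -0.227, adjusted p = 0.0153 and 0.0161).

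The regulatory light chains, the subunits whose phosphorylation activates the motor, were all higher in Ps. Myl9 (chr2:156775420-156781658, plus strand) stood at 4.19, 4.15, 3.90 and 3.97 in siControl_CB and at 4.93, 4.56, 4.66 and 4.67 in siControl_Ps, a difference of 0.65 ± 0.085 (1.57-fold; limma adjusted p = 2.25e-06). In siAPC cells it stood at 5.51, 5.51, 5.40 and 5.31 in CB and at 5.996, 6.05, 5.93 and 6.03 in Ps, a difference of 0.57 ± 0.085 (1.48-fold; limma adjusted p = 1.18e-05). The groups did not overlap for either siRNA. Myl12a (chr17:70993656-71002878, minus strand) stood between 8.85 and 9.08 in siControl_CB and between 9.42 and 9.56 in siControl_Ps, and rose by 0.48 ± 0.059 there and by 0.39 ± 0.059 in siAPC (limma adjusted p = 9.87e-07 and 1.33e-05). Its neighbour Myl12b (chr17:70973133-70990890, minus strand) stood between 5.15 and 5.34 in siControl_CB and between 5.76 and 5.90 in siControl_Ps, and was higher in Ps by 0.58 ± 0.076 in siControl and 0.61 ± 0.076 in siAPC (limma adjusted p = 2.31e-06 and 1.27e-06). For all 3 genes, each of the 4 Ps libraries exceeded each of the 4 CB libraries within both siRNAs.

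All 4 tropomyosin genes were higher in Ps in both siRNAs, without overlap between the fractions. Tpm4 (chr8:72134975-72153142, plus strand), known mainly for a short cytoskeletal isoform, stood at 7.49, 7.40, 7.51 and 7.51 in siControl_CB and at 8.27, 8.25, 8.24 and 8.26 in siControl_Ps. Its difference of 0.78 ± 0.065 (1.71-fold; limma adjusted p = 6.58e-09) was the highest of the 10 genes as deposited, and in siAPC it was 0.72 ± 0.065 (1.65-fold; limma adjusted p = 2.22e-08), from 7.26 to 7.49 in CB and from 7.95 to 8.24 in Ps. After the loess correction described below, Tpm4 stood at 0.558 in siControl and 0.441 in siAPC, below Tpm2 (0.695 in both), Myl12b (0.631 and 0.696) and Myh10 (0.61 and 0.638), and in siControl below Myh9 (0.583) as well. The 4 siControl_Ps libraries of Tpm4 lay close together (SD 0.012). Tpm2 (chr4:43514711-43523765, minus strand) rose from 6.58, 6.56, 6.53 and 6.66 in siControl_CB to 7.24, 7.07, 7.15 and 7.17 in siControl_Ps, by 0.57 ± 0.054 (limma adjusted p = 3.34e-08). Tpm1 (chr9:67022590-67049406, minus strand) rose from 7.88, 7.84, 8.04 and 8.09 to 8.40, 8.28, 8.60 and 8.61, by 0.51 ± 0.073 (limma adjusted p = 6.69e-06). Tpm3 (chr3:90072649-90100902, plus strand) had the lowest difference of the tropomyosins, 0.33 ± 0.054 in siControl and 0.29 ± 0.054 in siAPC (limma adjusted p = 3.25e-05 and 0.000137), with 7.29 to 7.46 in siControl_CB and 7.60 to 7.78 in siControl_Ps. Both Tpm3 calls were lost after scaling to total reads (0.03 in siControl and 0.133 in siAPC, adjusted p = 0.693 and 0.0732). In siAPC, Tpm1 was 0.46 ± 0.073 and Tpm2 0.53 ± 0.054 higher in Ps (limma adjusted p = 2.34e-05 and 1.08e-07). One value is given per gene, so that the muscle-type and cytoskeletal isoforms of a tropomyosin gene were not separated.

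The size of these differences depended on the processing. The direction changed with the scaling between libraries for Myh9 and Myh10 in siControl, and with a correction for GC content and length for Myh9 in siAPC and for Myl6 in both siRNAs. The deposited scaling factors averaged 0.875 in siControl_Ps and 0.979 in siAPC_Ps, beside 1.07 in siControl_CB and 1.09 in siAPC_CB. Scaling to the total of listed reads moved the median of all genes to -0.30 in siControl and -0.14 in siAPC. On this scale 7 of the 10 genes were higher in Ps and 1 lower for each siRNA, where 15.4% of all genes were higher and 47.6% lower in siControl and 21.5% and 39.3% in siAPC. Myh9 stood at -0.27 and -0.49. After quantile normalization Myh9 was at -0.59 in siControl and -0.88 in siAPC. After a loess correction for GC content and length, Myh9 turned to 0.58 and 0.26 and Myl6 to -0.23 in both siRNAs, all past the adjusted threshold (limma adjusted p = 5.33e-08, 0.00059, 0.0153 and 0.0161). Myh9 has one of the longest principal transcripts of the set, 7433 bases, and Myl6 the shortest, 665 bases. Myl9, Myl12a, Myl12b, Tpm1, Tpm2 and Tpm4 were called higher in Ps in both siRNAs under each of these settings. Their differences were smaller with total-read scaling, at 0.352, 0.184, 0.282, 0.213, 0.277 and 0.478 in siControl, in this order. In siAPC they were 0.414, 0.237, 0.46, 0.306, 0.377 and 0.563. In siControl, quantile normalization gave 0.293 for Myl12a, and the loess gave 0.42 for Myl9.

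**Figure D3:**
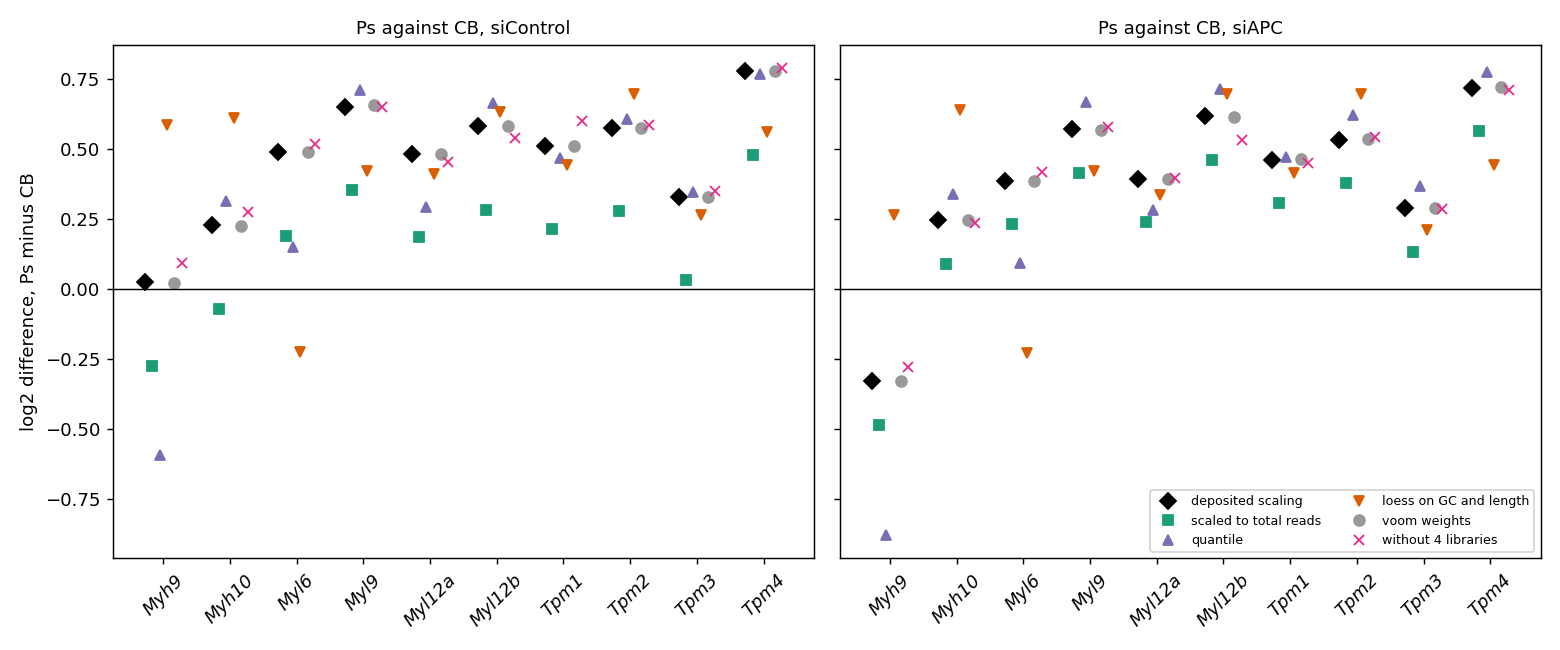
Log2 difference between Ps and CB of each gene under 6 ways of processing the same values, in siControl (left) and siAPC (right); each symbol is 1 fitted difference between groups of 4 libraries, or of 3 where the 4 libraries are left out. Myh9 runs from -0.59 to 0.58 in siControl, and Myl6 turns negative only after the loess correction.

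Whether knockdown of Apc altered the enrichment was tested as an interaction, Ps/CB in siAPC minus Ps/CB in siControl. None of the 10 genes passed (limma adjusted p from 0.981 to 0.995), where 3 of 13015 genes did (0.0231%; 0 to 8 genes leaving out 1 library), and 1 of the 10 had an unadjusted p below 0.05. This gene was Myh9, whose Ps/CB difference was 0.35 ± 0.12 lower on the log2 scale in siAPC (unadjusted p = 0.0103; 1.71% of genes were lower and 2.07% higher at that level), and it failed the adjustment. Its value stayed negative under every setting tried. For Myl9 the interaction was -0.079, with a 95% interval of -0.33 to 0.17, and for Tpm1 -0.049 (-0.26 to 0.17). Tpm4 gave -0.057 (-0.25 to 0.13) and Tpm2 -0.042 (-0.20 to 0.12). The intervals of the 9 genes other than Myh9 all included 0, and a p above the threshold does not show that the enrichment was the same in both cells.

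The siRNAs were then compared within each fraction. These comparisons share their libraries with those of Ps and CB. The difference in Ps equals the difference in CB plus the interaction, so the value in Ps does not separate level from enrichment. For Myh9 the 3 values were -0.29 in Ps, 0.064 in CB and -0.35 for the interaction. In CB, 3 of the 10 genes were higher in siAPC and none was lower, where 13.4% of all genes were called, 7.52% higher and 5.87% lower (limma, adjusted p below 0.05). In Ps, 3 were higher and 1 lower, where 22% were called, 10.7% higher and 11.2% lower. After scaling to total reads, 5 of the 10 were higher in Ps and none lower, where 22.6% of all genes were higher and 4.23% lower. Over all genes in CB, leaving out 1 library gave from 1158 calls (without siAPC_CB replicate 4, with 427 lower) to 1886 (without siControl_CB replicate 3, with 1001 lower), beside 1743 calls with 764 lower. The genes that rose in both fractions were Myl9, Tpm1 and Tpm2, and the gene that fell in Ps was Myh9. The median over the 10 genes was 0.074 in CB and 0.054 in Ps, beside -0.042 and -0.025 over all genes. Groups did not overlap for 4 genes in each fraction, which held for 20.9% of genes in CB and 22.6% in Ps.

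**Figure D4:**
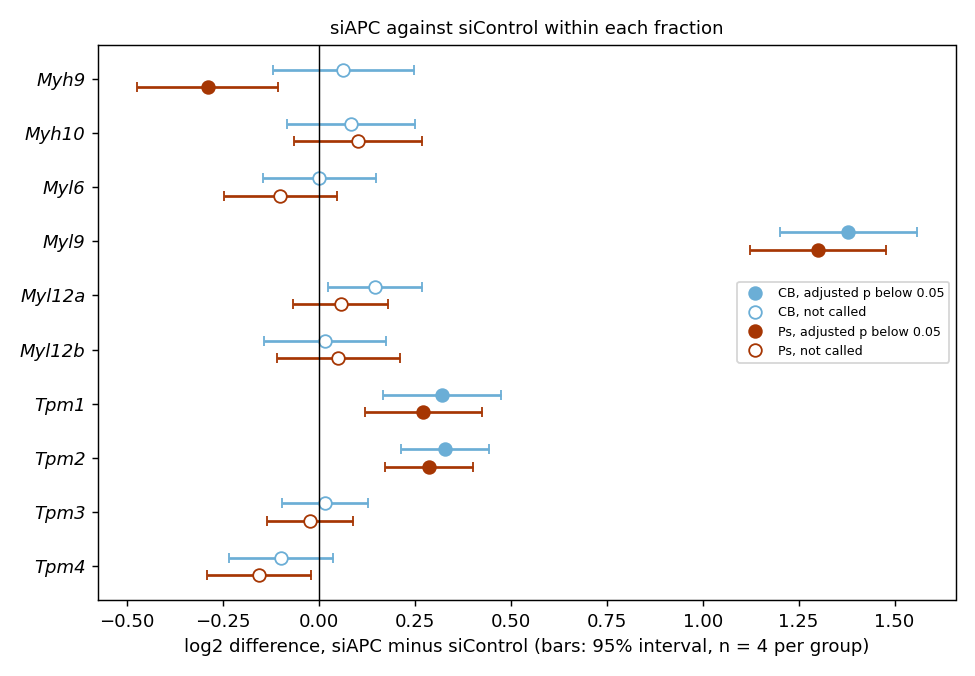
Log2 difference between siAPC and siControl for each gene within CB and within Ps, with 95% intervals from limma (n = 4 libraries per group); filled points passed an adjusted p of 0.05. Myl9 lies at 1.38 in CB and 1.30 in Ps, and Tpm1 and Tpm2 lie between 0.27 and 0.33.

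Myl9 had the highest difference of the 10 genes. Its siAPC libraries, 5.31 to 5.51 in CB and 5.93 to 6.05 in Ps, lay above every siControl library, 3.90 to 4.19 in CB and 4.56 to 4.93 in Ps. The lowest siAPC_CB library exceeded the highest siControl_Ps library as well. The difference was 1.38 ± 0.085 in CB (2.60-fold; limma adjusted p = 1.33e-09) and 1.30 ± 0.085 in Ps (2.46-fold; limma adjusted p = 2.79e-09), and it ranged from 1.30 to 1.43 and from 1.23 to 1.46 over all settings tried. These values rested on 287 to 382 reads per library in siControl and 698 to 1160 in siAPC.

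Neither of the other regulatory light chains passed the test in CB or Ps; whether they differed from Myl9 was not tested. Myl12a stood at 9.08, 9.07, 8.85 and 9.07 in siControl_CB and at 9.22, 9.17, 9.15 and 9.12 in siAPC_CB, without overlap, and its difference of 0.15 ± 0.059 did not pass (limma adjusted p = 0.114). It passed after scaling to total reads (0.17, adjusted p = 0.0342), quantile normalization (0.15, adjusted p = 0.023) and the loess (0.15, adjusted p = 0.00897). It stood at 0.091 when siControl_CB replicate 3 was left out, and at the same value when all 4 GC-trend libraries were (adjusted p = 0.264). In Ps it was 0.057 ± 0.059, and it passed there after scaling to total reads (0.22, adjusted p = 0.0033) and quantile normalization (0.14, adjusted p = 0.0248). Myl12b differed by 0.016 in CB (95% interval -0.14 to 0.18) and by 0.052 in Ps (-0.11 to 0.21), where scaling to total reads gave 0.215 (adjusted p = 0.0498). The essential light chain Myl6 differed by 0.0015 in CB (-0.15 to 0.15) and by -0.10 in Ps (-0.25 to 0.048).

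Tpm1 and Tpm2, which encode muscle-type tropomyosins as well as stress fibre isoforms, both rose. Tpm2 went from 6.58, 6.56, 6.53 and 6.66 in siControl_CB to 6.94, 6.89, 6.87 and 6.94 in siAPC_CB, and from 7.24, 7.07, 7.15 and 7.17 in siControl_Ps to 7.37, 7.40, 7.47 and 7.54 in siAPC_Ps. The groups did not overlap, and the differences were 0.33 ± 0.054 and 0.29 ± 0.054 (1.26-fold and 1.22-fold; limma adjusted p = 0.000328 and 0.000739). Tpm1 stood at 8.28, 8.33, 8.26 and 8.27 in siAPC_CB, above all libraries of siControl_CB (7.84 to 8.09). In siAPC_Ps it stood at 8.72, 8.82, 8.72 and 8.72, above all libraries of siControl_Ps (8.28 to 8.61). The differences were 0.32 ± 0.073 in CB and 0.27 ± 0.073 in Ps (limma adjusted p = 0.00534 and 0.011). The call in Ps was lost when the 4 GC-trend libraries were left out (0.18, adjusted p = 0.0625), while the call in CB was kept without them (0.33, adjusted p = 0.00331).

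Tpm3 and Tpm4 passed the test in neither fraction. Tpm3 differed by 0.016 in CB (95% interval -0.096 to 0.13) and by -0.023 in Ps (-0.14 to 0.089). Tpm4 differed by -0.099 in CB (-0.23 to 0.036) and by -0.16 ± 0.065 in Ps, where the siAPC libraries (7.95 to 8.24) lay below the siControl libraries (8.24 to 8.27) without passing the adjusted test (limma adjusted p = 0.0934). In Ps the test passed after the loess (-0.14, adjusted p = 0.0271), when the 4 GC-trend libraries were left out (-0.20, adjusted p = 0.025) and without siAPC_Ps replicate 2 alone (-0.20, adjusted p = 0.0346), and the value was 0.008 after scaling to total reads.

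Among the heavy chains, Myh9 was 0.29 ± 0.088 lower in siAPC_Ps than in siControl_Ps (1.22-fold; limma adjusted p = 0.0228), and the ranges overlapped, 9.99 to 10.18 against 10.14 to 10.61. The call was lost when siControl_Ps replicate 3 (-0.21, adjusted p = 0.0876), siControl_Ps replicate 4 (-0.25, adjusted p = 0.0763) or siAPC_Ps replicate 2 (-0.26, adjusted p = 0.0656) was left out. It was also lost after scaling to total reads (-0.13, adjusted p = 0.333), after quantile normalization (-0.094, adjusted p = 0.431) and in a fit of these groups alone (adjusted p = 0.0629). Each siAPC_Ps library lay below the siControl_Ps library of the same number, and the call was kept with the replicate block (limma adjusted p = 0.00583). In CB Myh9 differed by 0.064 (95% interval -0.12 to 0.25). Myh10 differed by 0.084 in CB (-0.083 to 0.25) and by 0.10 in Ps (-0.065 to 0.27).

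The make-up of each class was also described. Myl9 supplied 4.91 ± 0.30% of regulatory light chain transcripts per kilobase in siControl_CB and 5.48 ± 0.61% in siControl_Ps, and 10.9 ± 0.46% in siAPC_CB and 12.02 ± 0.43% in siAPC_Ps (SD, n = 4), with no overlap between siRNAs. Myl12a supplied 89.1 ± 0.38% of the class in siControl_CB and 84.0 ± 0.35% in siAPC_CB. Myh10 supplied 2.57 ± 0.28% of heavy chain transcripts in siControl_CB, 2.96 ± 0.44% in siControl_Ps, 2.61 ± 0.33% in siAPC_CB and 3.83 ± 0.39% in siAPC_Ps. Among tropomyosins, Tpm1 supplied 39.3 ± 1.40% in siControl_CB and 43.9 ± 0.75% in siAPC_CB, and Tpm4 supplied 25.0 ± 0.80% and 20.9 ± 1.09%. From CB to Ps in siControl, the share of Tpm4 went from 25.0% to 29.2 ± 1.63% and that of Tpm3 from 22.0% to 18.8 ± 0.36%. Shares add up to 100% within a class, so that 1 gene's rise lowers the others. They rest on the principal transcript lengths, and no test was run on them.

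**Figure D5:**
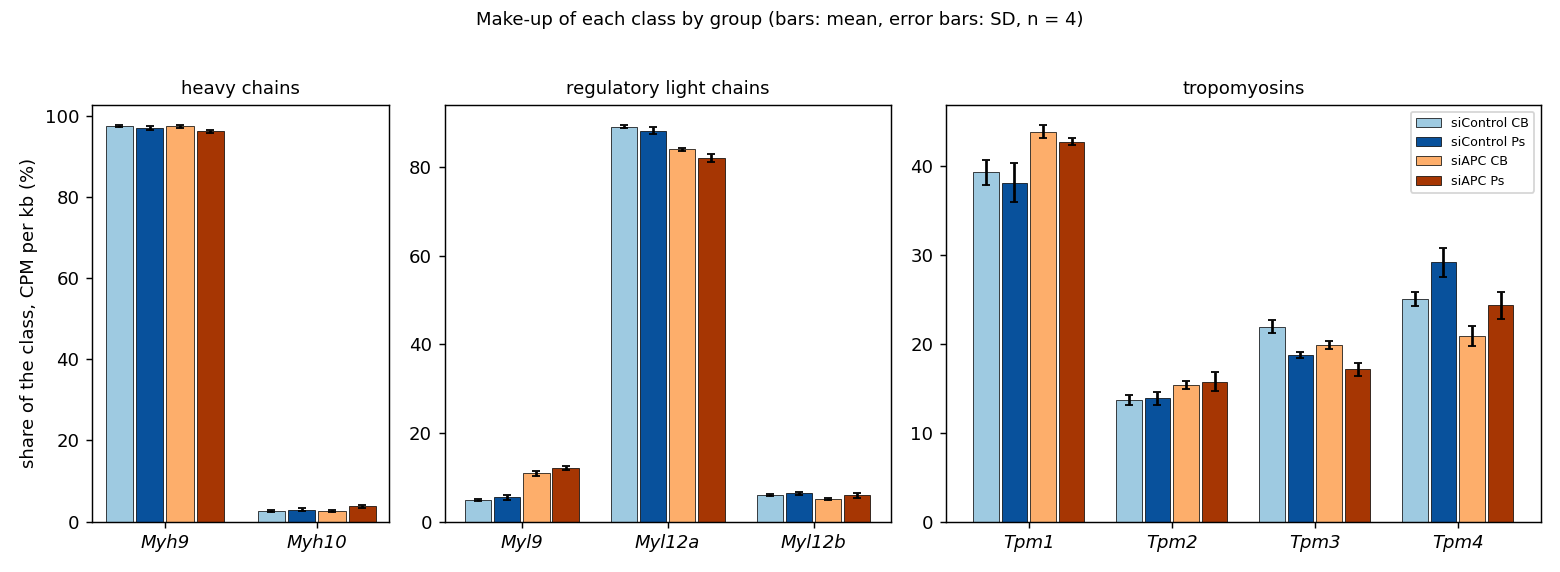
Share of each gene in the summed CPM per kb of its class, as mean and SD of 4 libraries per group on axes that start at 0. The share of Myl9 is 4.91% and 5.48% in siControl against 10.9% and 12.02% in siAPC.

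Differences between paralogues within a library do not depend on a scaling factor per library. Quantile normalization is no such factor, and these differences were not tested under it. For Ps against CB in siControl it put Myh10 at 0.315 and Myh9 at -0.594. As deposited, 3 pairs were compared in 4 ways each by exact two-sided permutation tests of 4 against 4 libraries. The smallest possible p is 0.0286, and Benjamini-Hochberg adjustment covered 12 tests. None passed after adjustment, and 3 of the 12 had an unadjusted exact p below 0.05. These 3 stood at the smallest possible p and still came to 0.114 after adjustment. So few tests at that p cannot pass, and the lack of a pass does not show that the paralogues behaved alike. These tests did not use the replicate numbers, since a paired exact test of 4 pairs cannot go below 0.125. By number, Myh10 relative to Myh9 was higher in Ps than in CB in 4 of 4 pairs in siAPC (by 0.39 to 0.76) and higher in siAPC_Ps than in siControl_Ps in 4 of 4 (by 0.20 to 0.56). Myh10 relative to Myh9 was 0.58 higher in siAPC_Ps than in siAPC_CB (exact p = 0.0286, adjusted 0.114), with -5.16 ± 0.18 in CB and -4.59 ± 0.15 in Ps (SD), and 0.20 higher in Ps in siControl (exact p = 0.2, adjusted 0.4). The siControl value was 0.028 after the loess and 0.109 without siControl_Ps replicate 2. Myl12b relative to Myl12a was 0.22 higher in siAPC_Ps than in siAPC_CB and 0.13 lower in siAPC_CB than in siControl_CB (exact p = 0.0286 and adjusted 0.114 for both). By number it was higher in siAPC_Ps than in siAPC_CB in 4 of 4 pairs (by 0.071 to 0.48). Over all settings tried, this difference of Ps against CB ranged from 0.136 to 0.36 in siAPC. In siControl it was 0.098 as deposited and ranged from 0.071 to 0.222. Tpm2 relative to Tpm1 differed by at most 0.071 in any comparison as deposited (exact p from 0.314 to 0.943). After the loess it was higher in Ps by 0.253 in siControl (exact p = 0.0571) and by 0.28 in siAPC (exact p = 0.0286).

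Genes of the wider pathway were counted by list, for which the share of all genes called is given above. The kinases, phosphatases and small GTPase pathway genes that act on myosin II were taken as a list of 27 genes, of which 23 were listed in the table. In siControl, 6 were higher in Ps and 9 lower (median -0.11), and in siAPC 6 and 10 (median -0.24). Rock1 and Rock2, kinases that phosphorylate the light chain and its phosphatase, rose in Ps by 1.05 ± 0.33 and 0.77 ± 0.15 in siControl and by 1.49 ± 0.33 and 0.90 ± 0.15 in siAPC (limma adjusted p = 0.00938, 0.000265, 0.000625 and 6.15e-05). Citron kinase (Cit) fell by 0.96 ± 0.18 and 0.78 ± 0.18, the GTPase gene Rhob by 0.62 ± 0.12 and 0.54 ± 0.12, and the exchange factor gene Arhgef1 by 0.55 ± 0.091 and 0.68 ± 0.091, in siControl and siAPC (limma adjusted p from 3.29e-06 to 0.001). Between siRNAs, 3 of 23 rose in CB and none fell (median 0.0295), and in Ps 3 rose and 3 fell (median -0.021). Cit rose by 1.21 ± 0.18 in CB and 1.38 ± 0.18 in Ps, and Mylk, the light chain kinase, by 0.73 ± 0.14 in CB (limma adjusted p = 0.000116, 1.6e-05 and 0.00147). Rhob rose by 0.36 ± 0.12 in CB and by 0.45 ± 0.12 in Ps, and Rnd3, an atypical small GTPase gene, by 0.78 ± 0.21 in Ps, where Limk1 and the phosphatase inhibitor gene Ppp1r14b fell by 0.34 ± 0.11 and 0.28 ± 0.065 (limma adjusted p = 0.0499, 0.0106, 0.00995, 0.0411 and 0.00376).

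Of 23 proteins that bind stress fibres or compete with tropomyosin, 19 were listed. In Ps, 8 were higher and 4 lower in siControl (median 0.094), and 8 and 5 in siAPC (median 0.0375). The actin bundler Palld and caldesmon (Cald1), which binds tropomyosin, rose by 1.63 ± 0.16 and 1.09 ± 0.18 in siControl and by 0.96 ± 0.16 and 1.2545 ± 0.18 in siAPC, while the filamin gene Flna fell by 0.63 ± 0.086 in siControl and by 0.97 ± 0.086 in siAPC (limma adjusted p from 1.87e-08 to 5.13e-05). With siAPC, 6 rose and 1 fell in CB (median 0.16), and 4 rose and 2 fell in Ps (median 0.10). The calponin Cnn2 rose by 0.52 ± 0.074 in CB and 0.42 ± 0.074 in Ps, Palld by 1.08 ± 0.16 in CB, and Tagln2 fell by 0.19 ± 0.063 in CB and 0.31 ± 0.063 in Ps (limma adjusted p = 6.09e-05, 0.000347, 0.000132, 0.0478 and 0.00119). Pdlim7 rose by 0.26 ± 0.074 in CB and 0.25 ± 0.074 in Ps, and Pdlim5 by 0.29 ± 0.085 in Ps, where Zyx, encoding the focal adhesion protein zyxin, fell by 0.27 ± 0.077 (limma adjusted p = 0.0225, 0.0185, 0.0203 and 0.0163).

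Other myosins were listed more sparsely. Of 21 unconventional myosins 12 were listed, and 3 were higher and 3 lower in Ps in siControl (median -0.052), and 3 and 6 in siAPC (median -0.14). Myo5a, a vesicle motor, rose in Ps by 0.60 ± 0.19 and 0.63 ± 0.19 and Myo19, a mitochondrial motor, fell by 0.70 ± 0.15 and 0.86 ± 0.15 in siControl and siAPC (limma adjusted p = 0.00941, 0.00652, 0.00041 and 5.18e-05). Myo7a fell in Ps by 0.65 ± 0.14 and 0.73 ± 0.14, Myo18a rose by 0.36 ± 0.10 in siControl and Myo9a by 0.79 ± 0.22 in siAPC (limma adjusted p = 0.00054, 0.000193, 0.0049 and 0.00409). With siAPC, 4 of 12 rose and none fell in CB (median 0.0062), among them the filopodial motor gene Myo10 by 0.42 ± 0.061 (0.28 ± 0.061 in Ps, limma adjusted p = 8.58e-05 and 0.00215), and in Ps 4 rose and 1, Myo18a, fell by 0.37 ± 0.10 (median -0.13, limma adjusted p = 0.0122). Myo7a rose by 0.48 ± 0.14 in CB and 0.41 ± 0.14 in Ps, and the class I myosins Myo1d and Myo1e rose in both as well, by 0.39 ± 0.067 and 0.34 ± 0.076 in CB (limma adjusted p = 0.0264, 0.0432, 0.000481 and 0.00498). Of 17 other class II heavy and light chains 5 were listed, with 2 higher and none lower in Ps for each siRNA (medians 0.66 and 0.46), and with siAPC 2 higher in CB and 1 in Ps and none lower (medians 0.63 and 0.21). Among them Myl6b, the paralogue of Myl6, rose in Ps by 1.56 ± 0.11 in siControl and 1.16 ± 0.11 in siAPC, and by 0.63 ± 0.11 with siAPC in CB (limma adjusted p = 5.21e-10, 3.11e-08 and 0.000438). Myl4 rose by 0.49 ± 0.17 in Ps in siAPC (limma adjusted p = 0.0159). None of these lists had a gene that passed the interaction test, and the lists were chosen with earlier results of these data known.

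The genes whose pattern over the 16 libraries was most like that of a member were found by the root mean square (RMS) distance between log2 values centred on each gene's mean, among 7845 genes with a mean log2 CPM of at least 3. For Tpm1 the nearest gene was Tpm2 (RMS distance 0.10), followed by Selm, Fam114a1, BC030336 and Ino80c (0.10 to 0.12), where the median distance of all candidates was 0.40. Myl12a was 27th, at 0.14. For Myh9 the nearest were Mvp, Copa, Sh2b3, Hipk2 and Prrc1 (0.077 to 0.091, median of all 0.305), and the closest of the other 9 genes was Tpm3 in place 3066. For Myl9, added after its values were seen, the nearest was Acta2, the smooth muscle actin gene (0.13, median of all 0.81), followed by Nupr1, Nudt4, Ifi27l2a and Prrx2 (0.21 to 0.22). These distances describe likeness over shared libraries and fractions only.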

How the data were processed

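Per the labels and the methods of the study, 16 libraries were sequenced, and the authors used STAR 2.4.2a with mm10 and a GENCODE annotation for alignment, Rsubread for counting per gene and limma-voom (limma 3.26.1) for normalization. The deposited values are log2 CPM, with 0.5 read added and a scaling factor between libraries. Inverting this gave whole reads for 100% of 208240 values (tolerance 0.01). Use of strand in counting is not given in the sources used here.

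Here limma 3.58.1 (R 4.3.3; lmFit, eBayes with trend) was fitted to all 13015 genes with 1 mean per group, and p-values were adjusted by Benjamini-Hochberg over all of them, with calls below 0.05. The fit was tested on simulated data, for which no outcome is given here. Genes, lists and the rule for naming (the 10 genes; per list and comparison the 2 highest and 2 lowest passing genes with a mean log2 of at least 1; the 5 most alike to Myh9 and Tpm1) were chosen with earlier results of these data known. One gene that the rule named is not reported here. The motif search and the choice of promoter shown also followed. GC content and lengths came from GENCODE M21 for 98.91% of genes. The study describes 4 independent replicates, and the labels give numbers only, so p-values measure the spread between these libraries.

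Alternatives were total-read scaling, quantile normalization, loess on GC content and length, voom weights, log2(CPM + 1), a filter on mean log2 below 1, fits of the compared groups, a replicate block and leaving out libraries. Deviations from group means of same-numbered libraries correlated at 0.416 to 0.617 between siAPC_CB and siAPC_Ps. Libraries of unlike number gave -0.592 to 0.572 there. Between siControl_Ps and siAPC_Ps the values were 0.162 to 0.551 for the same number and -0.484 to 0.347 for unlike numbers. The ranges overlap, so the numbers were not shown to pair these libraries. Same-numbered libraries did not all correlate positively in siControl (-0.121 to 0.432) or between the CB groups (-0.336 to 0.269).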

Additional observations from a re-analysis of the deposited data

Results flagged for a closer look

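In 40 groups of 4 libraries (10 genes in 4 groups) and in 12 groups of differences between paralogues, the lowest or highest library was set against the others by Dixon's criterion, which chance alone meets in about 1 of 20 groups. Myl12a in siControl_CB replicate 3 was at 8.851 log2 CPM, while the other libraries of the group lay between 9.068 and 9.076. Tpm1 in siAPC_Ps replicate 2 was at 8.823, while the others lay between 8.715 and 8.723. Both libraries are among the 4 whose values fell with GC content (Spearman -0.538 and -0.658 across genes); the part of this in the values was not tested. Without these 4 libraries, the siAPC difference was 0.181 for Tpm1 in Ps (limma adjusted p = 0.0625) and 0.091 for Myl12a in CB (limma adjusted p = 0.264).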

How the results depend on the processing

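The replicate block changed no call of the 10 genes: 9 were higher in Ps in siControl, 9 higher and 1 lower in siAPC, 0 passed the interaction, and between siRNAs 3 were called in CB and 4 in Ps, as without it (Myh9 in Ps -0.29, adjusted p = 0.00583). Voom weights, log2(CPM + 1) and the filter on low values changed none either. The number of genes past the interaction threshold among all genes was 3, and 0 with total-read scaling or log2(CPM + 1), 1 with the block, 8 after quantile normalization, 14 after the loess and 22 after the loess with the block. Leaving out 1 library gave 0 to 8, with 8 without siAPC_Ps replicate 3 and 6 without siControl_Ps replicate 2. Scaling to total reads moved the split over all genes from 3792 higher and 4058 lower to 2005 and 6193 for Ps against CB in siControl, and the causes of the changes below were not tested. Changed values are log2 differences.

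For Ps against CB in siControl, total-read scaling gave -0.274 for Myh9 and -0.071 for Myh10, quantile normalization -0.594 for Myh9, and the loess -0.226 for Myl6, with or without the block. In siAPC the loess, with or without the block, gave 0.263 for Myh9 and -0.227 for Myl6. Without siControl_Ps replicate 3 Myh9 stood at -0.052 in siControl, against 0.103 without siControl_Ps replicate 2.

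For the interaction, total-read scaling gave 0.041 for Myl6, 0.063 for Myl9, 0.053 for Myl12a, 0.093 for Tpm1, 0.1 for Tpm2, 0.103 for Tpm3 and 0.085 for Tpm4. Quantile normalization gave 0.002 for Tpm1, 0.014 for Tpm2, 0.024 for Tpm3 and 0.01 for Tpm4, and the loess with or without the block gave 0 for Tpm2. Without the 4 libraries whose values fell with GC content Myh10 was at -0.038 and Myl12b at -0.006. Leaving out 1 library gave -0.042 to 0.072 for Myh10 and -0.038 to 0.099 for Myl12b.

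For siAPC against siControl in CB, leaving out those 4 libraries gave -0.008 for Myl6 and -0.015 for Myl12b, and leaving out 1 library gave -0.024 to 0.024 for Myl6, -0.024 to 0.04 for Myl12b and -0.005 to 0.049 for Tpm3. In Ps, total-read scaling gave 0.064 for Myl6, 0.14 for Tpm3 and 0.008 for Tpm4, quantile normalization 0.016 for Myl6 and 0.036 for Tpm3, the loess with or without the block 0.044 for Myl6, and leaving out the 4 libraries -0.02 for Myl12b. Leaving out 1 library gave -0.022 to 0.115 for Myl12b and -0.052 to 0.007 for Tpm3.

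For Myh10 relative to Myh9, the difference of Ps against CB in siAPC was 0.375 after the loess (exact p = 0.0571), 0.514 without the 4 libraries (exact p = 0.1) and 0.516 to 0.661 leaving out 1. Between siRNAs it was -0.065 to 0.089 in CB and 0.315 to 0.486 in Ps leaving out 1, and 0.382 in Ps after the loess (exact p = 0.0286). For Myl12b relative to Myl12a, leaving out the 4 libraries gave 0.136 in Ps against CB in siAPC and -0.106 between siRNAs in CB (exact p = 0.1 for both, the smallest that 3 against 3 allows). Leaving out 1 library gave 0.071 to 0.147 in siControl and 0.146 to 0.271 in siAPC for Ps against CB, and -0.149 to -0.114 in CB and -0.083 to 0.042 in Ps between siRNAs. For Tpm2 relative to Tpm1, the loess gave 0.28 for Ps against CB in siAPC (exact p = 0.0286) and -0.012 between siRNAs in CB. Leaving out the 4 libraries gave -0.016 for Ps against CB in siControl and -0.014 between siRNAs in CB, and leaving out 1 gave -0.034 to 0.042 in CB and -0.031 to 0.064 in Ps between siRNAs.

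Each value of these genes rested on at least 287 reads, and how far depth limited the calls was not tested.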
